A study of Mus musculus with 7 samples.

Results

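Neuropeptide precursors are the proteins from which neurons and endocrine cells cut their peptide messengers, and 10 of their genes (Avp, Oxt, Sst, Npy, Penk, Pdyn, Cck, Tac1, Vip and Trh) were followed here in mouse brain and kidney. They were chosen by name: every probe set whose platform annotation gave exactly 1 of these symbols was taken. That gave 11 of the 45037 sense probe sets, 10 on the 430A design and a second one for Tac1 on 430B, and 10 of 18193 genes with a sense probe set. The reverse probe sets of the U74A and U74B designs, which bind RNA of the opposite strand to the gene, gave 0 for these genes among the 5652 analysed here, so antisense transcripts of the 10 precursors were not measured.

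The groups were total RNA of whole dissected brain and of dissected kidney, both put into TRIzol without further treatment. Biotin-labelled cRNA came from 8 micrograms of RNA for brain and 6.75 for kidney. Sense RNA of brain was read on the 430A and 430B designs, that of kidney on the 430 2.0 design, which carries the probe sets of both, so array design and tissue cannot be told apart. Strain, age and sex are not given in the sources used here, nor is it said how many animals gave each RNA. With a single array for each tissue and design there is no replicate error, no test was run and no p-value is given, and it is this lack of repeats that bounds the precision. In bulk tissue, fewer cells of a type and less RNA per cell cannot be told apart.

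A precursor enters the secretory pathway, is cut at pairs of basic residues by prohormone convertases, is trimmed by carboxypeptidase E and often amidated by peptidylglycine alpha-amidating monooxygenase. The finished peptides are stored in dense-core vesicles and act, with few exceptions, on G protein-coupled receptors. In brain, Sst, Npy, Vip and Cck are classical markers of cortical interneuron groups, Penk, Pdyn and Tac1 mark the projection neurons of the striatum, and Avp, Oxt and Trh are made by hypothalamic neurons that serve the pituitary gland.

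Several of these genes are textbook targets of cAMP signalling through the factor CREB, which binds the cAMP response element. The upstream sequences are shown because they let a reader see which of the precursors carry the letters of that element close to the start of transcription. RefSeq (GRCm38.p6) held an entry for 9 of the 10 genes (10 entries, as Pdyn has 2 starts); Penk had none. The letters TGACG or, on the other strand, CGTCA, the core of the element, were searched in the 250 bases before each start; the full palindrome TGACGTCA holds both, overlapping. The core was found in 5 of the 9 genes, Sst, Vip, Cck, Tac1 and Trh, and in 17.8% of all 32851 windows of that length. The full element was found in Sst alone among the 9, and in 1.55% of all windows. Below are the 120 bases before the start for those 5 genes and, as a window without the core, for Oxt, 5′ to 3′ on the gene's strand, with the core or full element in capitals.
Sst (chr16:23890845-23890964, minus strand): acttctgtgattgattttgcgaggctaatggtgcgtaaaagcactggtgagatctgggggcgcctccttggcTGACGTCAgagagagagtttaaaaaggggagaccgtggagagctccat
Vip (chr10:5639098-5639217, plus strand): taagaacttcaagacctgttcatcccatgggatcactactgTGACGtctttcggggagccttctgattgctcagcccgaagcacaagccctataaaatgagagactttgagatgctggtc
Cck (chr9:121495695-121495814, minus strand): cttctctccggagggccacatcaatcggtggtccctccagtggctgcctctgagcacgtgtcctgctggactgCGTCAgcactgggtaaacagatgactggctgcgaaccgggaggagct
Tac1 (chr6:7554941-7555060, plus strand): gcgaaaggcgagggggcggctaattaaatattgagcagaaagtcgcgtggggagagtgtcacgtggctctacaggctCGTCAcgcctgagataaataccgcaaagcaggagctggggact
Trh (chr6:92244651-92244770, minus strand): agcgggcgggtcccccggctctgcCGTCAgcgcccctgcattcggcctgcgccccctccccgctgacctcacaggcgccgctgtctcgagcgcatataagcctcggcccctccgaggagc
Oxt (chr2:130576049-130576168, plus strand): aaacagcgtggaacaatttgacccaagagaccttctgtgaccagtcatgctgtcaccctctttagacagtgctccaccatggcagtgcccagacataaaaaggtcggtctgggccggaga
In Sst the full element began 48 bases before the start. The core began 79 bases before it in Vip, 47 in Cck, 43 in Tac1, with another at 197, and 96 in Trh. Of the 6 precursors that read higher in brain (below), 4 had the core in the window. Trh, which was under the floor in both tissues, had it too. In all 6 letter strings were searched, and the element was chosen for display after their counts had been seen. Of the others, TGACGCA was found in Cck and Tac1 (1.75% of all windows), TATAAA in Vip (12.4%), CAGCTG in 0 of the 9 genes (13.0%) and ATTGG in Avp, Npy, Pdyn and Tac1 (33.8%). A match describes these letters only, and no match says only that they are not in this window.

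Signals are the deposited MAS5 values, an intensity on a linear scale, and each probe set is compared with itself between the tissues. Levels of different genes are not compared, since probes differ in binding strength. The exceptions are a search for genes with like signals and the sums over marker lists, which are descriptions only. Brain signals were brought to the kidney scale by centring, which multiplies the 430A values by 1.79, so a fold differs from the ratio of the signals printed beside it. Values under a floor of 186.4 in kidney units (104 on the brain array as deposited), the median of the brain array, were raised to it, because detection calls were not among the values used. For genes read on 430B the brain values were divided by 4.24, and the floor was 28.6 in kidney units (121.5 on the brain array as deposited). A fold is written as "at least" where the lower tissue was under the floor. A gene was called where the tissues differed by 2-fold or more. A gene above the floor but short of that is said to be within 2-fold. Where its lower tissue was under the floor, the true difference may be larger.

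In brain, 6 of the 10 precursors were higher than in kidney (Sst, Oxt, Npy, Cck, Tac1 and Vip), and none was higher in kidney. Penk was within 2-fold with both tissues above the floor. Avp was not called, but its kidney value was under the floor, so its 1.76-fold is a lower bound. Pdyn and Trh were under the floor in both tissues. Of all 18193 genes, 12.9% were called higher in brain and 18.7% in kidney. That balance turned with 430B put on the 430A scale, at 18.2% in brain and 10.8% in kidney. The 10 precursors are read from 430A, so this setting could not change their calls. The 10 genes had a median log2 ratio of 1.99, and all genes had one of 0. The median of the 10 was 0.85 with the floor at the 75th percentile and 3.64 with no floor. Brain signals were above the floor for 8 of the 10 genes, and kidney signals for 3, namely Oxt, Penk and Cck. Across all genes 61.3% were above the floor in brain and 55.1% in kidney. Those shares include genes read on 430B with its lower floor of 28.6, while the 10 precursors were held to 186.4. They are therefore not a like measure for the 10, least of all in kidney. As deposited, with neither centring nor floor, 9 of the 10 probe sets on 430A read more in brain than in kidney, Penk being the exception.

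**Figure D1:**
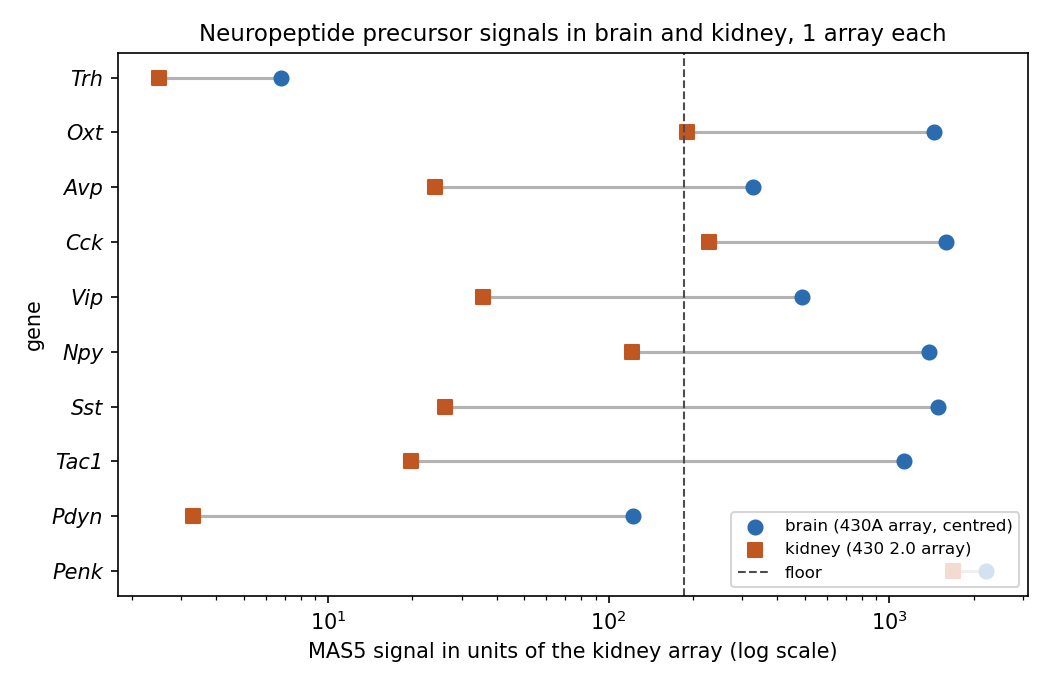
MAS5 signal of the 430A probe set of each of the 10 precursors in brain (circles, centred to the kidney scale) and kidney (squares), with 1 array per tissue and a logarithmic axis in units of the kidney array. The dashed line is the floor of 186.4; the circles of 8 genes lie above it, the squares of Oxt, Cck and Penk do too, and those of Penk lie close together.

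The 4 precursors that mark cortical interneurons, Sst, Npy, Vip and Cck, were all higher in brain. Sst encodes somatostatin, which inhibits hormone release and marks dendrite-targeting interneurons. Its signal was 835.3 in brain against 26.2 in kidney, a difference of at least 8.03-fold. Npy, the precursor of the appetite-stimulating neuropeptide Y, read 772.4 in brain against 121.6 in kidney, a difference of at least 7.43-fold. The kidney value of Npy was under the floor but at percentile 67.4 of the kidney array, against 41.9 for Sst. Cck, the precursor of cholecystokinin, read 893.2 in brain and 228.9 in kidney, a 6.99-fold difference with both tissues above the floor. Its probe set carries the mark _a_at, which denotes probes shared by transcripts of 1 gene. Vip, the precursor of vasoactive intestinal peptide, read 272.6 in brain against 35.7 in kidney, a difference of at least 2.62-fold. The call of Vip ended when the floor was put at the 75th percentile, where its log2 ratio was 0.09.

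General markers of inhibitory neurons gave values for the same brain RNA. Of 10 such genes 4 were higher in brain, none was higher in kidney and 5 were under the floor in both tissues. The GABA-synthesising enzymes Gad1 (1022.9 in brain and 13.8 in kidney) and Gad2 (228.8 and 22.6) were higher in brain. So were the vesicular GABA transporter Slc32a1 (382.3 and 13.4) and Reln, a secreted protein of interneurons and Cajal-Retzius cells (834.5 and 42.8). The call of Slc32a1 ended with the floor at the 75th percentile and with its probe sets averaged by their median. That of Gad2 ended with signals as deposited and with the same higher floor. It rests on a 430A probe set. The other Gad2 probe set, on 430B, was called for brain too, with a signal of 1289 there against 3.1 for kidney. Its log2 ratio of 3.41 is a lower bound. The transcription factors of the interneuron lineage gave low values, and of Dlx1, Dlx2, Dlx5, Dlx6, Lhx6 and Npas1 only Lhx6 was above the floor.

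Tac1, the precursor of substance P and neurokinin A, read 630.1 in brain against 19.8 in kidney, a difference of at least 6.06-fold. Its second probe set, on 430B, read 136.5 in brain against 27.5 in kidney, a difference of at least 1.12-fold. Both folds are lower bounds, so whether the probe sets of this gene disagree in size cannot be told from them. Their median gave a log2 ratio of 1.38, still past 2-fold. The opioid precursors did not follow Tac1. Penk, the precursor of the enkephalins, read 1238.2 in brain and 1685.2 in kidney. Both values lay high on their arrays, at percentile 96.6 in brain and 96.2 in kidney. Penk was the only one of the 10 genes at or above percentile 90 in kidney, where 6 reached it in brain. After centring, Penk was 1.32-fold higher in brain (log2 0.40), but as deposited it was higher in kidney (log2 -0.44), so its direction rests on the scaling and it was called in neither tissue under any setting tried. Pdyn, the precursor of the dynorphins, read 68.1 in brain and 3.3 in kidney, both under the floor.

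Genes of striatal projection neurons, which make Penk, Pdyn and Tac1, were present in the brain RNA. All 6 of those measured were higher in brain, among them Rasd2 (826.9 in brain and 46.1 in kidney), Pde10a (909 and 38.3), Rgs9 (423.4 and 92.7) and the dopamine signalling protein Ppp1r1b (344.5 and 45.8). The calls of Rgs9 and Ppp1r1b ended with the floor at the 75th percentile, that of Pde10a with the 430A floor used for 430B, and those of Rgs9 and Pde10a with probe sets averaged by their median. The 6 calls became 2 with the higher floor and 3 with the median. Pde10a and Rgs9 also had probe sets within 2-fold or under the floor. Beside the kidney value of Penk stand genes of the adrenal gland, whose chromaffin cells make enkephalin. Of 10 such genes none was higher in kidney, and their summed kidney signal was 291.4, with single values from 8.8 to 74.8. The catecholamine enzymes Th and Dbh read 8.8 and 40.5 in kidney, Pnmt 49.9 and the granule protein Chga 18.4. Of the 10, only Dbh and the steroid enzyme Cyp11a1 (30.3) passed the kidney floor of their design, which is 28.6 on 430B. Brain RNA held some of these genes too, with Chga at 698.4 and Th at 170.4. Their part in the kidney value of Penk was not tested. The 8 neuron markers summed to 214.2 in kidney and 27601.7 in brain. The sums of this and the other marker lists add signals as deposited, without the centring of 430A and 430B. Brain and kidney sums are therefore not on a common scale.

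Oxt and Avp are neighbours on chromosome 2 in the RefSeq gene order, and each encodes a hormone of hypothalamic neurons together with its carrier neurophysin. Oxt, the oxytocin precursor, read 806.2 in brain and 190.9 in kidney, a 7.57-fold difference; the kidney value lay just above the floor. Avp, the precursor of the antidiuretic hormone vasopressin, read 182.7 in brain against 24.1 in kidney, a difference of at least 1.76-fold, which does not reach the limit for a call. With no floor Avp had a log2 ratio of 3.76, and with quantile normalization 1.04, which made it a brain call. Trh, the precursor of thyrotropin-releasing hormone, read 3.8 in brain and 2.5 in kidney, at percentiles 3.64 and 8.42, and no difference could be read from it.

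The hypothalamus is a small part of the brain, and few of its factors were read. Of 9 hypothalamic transcription factors 7 were under the floor in both tissues. Otp, a factor of neuroendocrine neurons, was higher in brain (468.3 against 16.8, at least 3.85-fold), and Sim1, which the oxytocin and vasopressin neurons need, read 200.2 against 35.8, at least 1.93-fold. A second probe set of Sim1 read the other way, 27.3 in brain and 185.5 in kidney, and was under the floor in both. The call of Otp ended with the 430A floor used for 430B, with the floor at the 75th percentile and with its probe sets averaged by their median. Pituitary genes were in the brain RNA as well: of 9 measured 4 were higher in brain and 0 were higher in kidney. Their summed signal, as deposited, was 13711.4 in brain and 196.4 in kidney. Gh (5129.1 and 33.8), Prl (4519.1 and 1.6), Pomc (3041.6 and 52.7) and the shared hormone subunit Cga (612 and 16.6) were the 4. Gh, Prl and Pomc were read by marked probe sets (_a_at or _x_at), and without those 1 pituitary gene was called. Their part in the values of Oxt and Avp was not tested.

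Among all genes, 292 of 18193 (1.61%) had a log2 ratio at least as high as the 3.01 of Sst. For Oxt the share was 1.80%, for Npy 1.85%, for Cck 2.04% and for Tac1 2.47%. It was 8.31% for Vip, 15.8% for Avp and 23.9% for Penk. The ratios of Sst, Npy, Tac1, Vip and Avp are lower bounds set by the floor, so their order is not an order of tissue differences. The only repeat reading was that of 98 probe sets on both brain arrays, whose log2 difference, 430B over 430A, had a median of 1.33 and an SD of 0.25. The centring of both designs on kidney corresponds to 2.93 instead, so the repeat places brain values of 430B 3.03-fold higher than the scale used here. The 10 precursors are read from 430A, and those readings are not touched by this. The 430B probe set of Tac1 is, and so is the Tac1 median that includes it. Genes read on 430B are touched too. On the scale of the repeat Dpp4 had a log2 ratio of -3.71 in place of -5.31, and Npy6r -1.91 in place of -3.51. Pcsk5 had -1.83 in place of -3.43, and Pgpep1 -1.15 in place of -2.75. The SD covers the arrays and not animals.

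**Figure D2:**
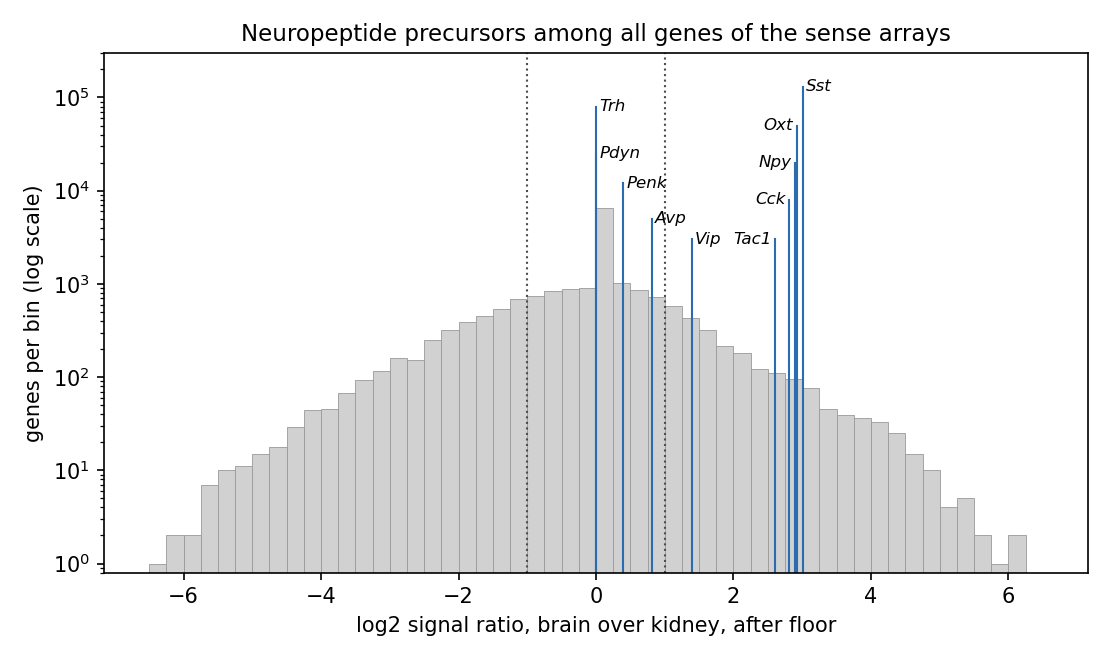
Histogram of the log2 signal ratio of brain over kidney, after centring and floor, for 18193 genes (grey bars, logarithmic count axis), with a line at the value of each of the 10 precursors; the height of a line has no meaning and dotted lines mark 2-fold. Sst, Oxt, Npy, Cck and Tac1 lie between 2.60 and 3.01, and Pdyn and Trh lie at 0 with the 5285 genes under the floor in both tissues.

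The genes whose pair of signals was nearest to that of a precursor were looked up for the 3 with the highest brain percentile, Penk, Cck and Sst, by Euclidean distance of log2 brain and kidney signals after the floor over 10842 genes of 430A. Only 2 tissues enter this measure. It sets signals of different genes side by side, so a small distance does not mean equal RNA levels. Nearest to Sst were Reln (834.5 in brain and 42.8 in kidney), Tspan5 (837.6 and 174.1) and Camk2b (827.2 and 41.7), all with kidney under the floor. With kidney raised to the floor, brain signal alone set their distance from Sst. Within a distance of 0.1 lay 34 genes for Sst, against 4 for Cck and 3 for Penk. Nearest to Cck were Trim32 (905.2 and 231.1), Rap1gap (861 and 225.8) and Dtx3 (920.8 and 235). Nearest to Penk were BC031181 (1228.5 and 1718.7), Rcn2 (1189.5 and 1598.6) and Atp6v0b (1161.3 and 1644.5).

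The next comparison took in the other genes of the peptide pathway. Of 25 further neuropeptide precursors with a sense probe set, 4 were higher in brain, 1 in kidney, 6 within 2-fold and 14 under the floor in both tissues. The median log2 ratio was 0. The shares called were 16% in brain and 4% in kidney, against 12.9% and 18.7% of all genes. The ratios of the 6 are lower bounds, as their kidney values were under the floor. The largest ratio was that of Pomc, the precursor of corticotropin, melanocortins and beta-endorphin (at least 29.2-fold higher in brain), which is also the main product of pituitary corticotrophs. Pmch, the melanin-concentrating hormone precursor of the lateral hypothalamus, read 937.3 in brain against 16.1 in kidney, a difference of at least 7.71-fold. Cartpt, a feeding-related precursor, read 313.4 and 23.7, at least 3.01-fold higher. The kidney call was Npb, at 93 in brain and 99 in kidney, which rests on the centring of 430B and was lost with 430B on the 430A scale, with signals as deposited and with both higher floors. The call of Pmch ended with the 430A floor used for 430B, and that of Cartpt with the floor at the 75th percentile.

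Genes that process the precursors were divided. Of 13 measured, 4 were higher in brain, 1 in kidney, 5 within 2-fold and 3 under the floor, with a median log2 ratio of 0.59. Pcsk1n, the proSAAS inhibitor of prohormone convertase 1, read 3100.4 in brain against 36.5 in kidney, a difference of at least 29.8-fold. Scg5, the 7B2 chaperone of prohormone convertase 2, read 1140.1 and 259.3, 7.88-fold higher. Pam, which amidates peptides such as oxytocin, vasopressin and neuropeptide Y, read 772.7 and 106.6, at least 7.43-fold higher. Carboxypeptidase E, Cpe, was the other brain call and read 4140.8 and 1317.5. Pcsk5, a convertase of many tissues, was called higher in kidney by 1 of its 5 probe sets (116.2 in brain and 308.3 in kidney), the other 4 being under the floor in both tissues, and the call ended with the 430A floor used for 430B and with its probe sets averaged by their median. Furin and Pcsk7, convertases that most cells express, were within 2-fold (191.4 in brain and 438 in kidney, and 200 and 238.4).

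Dense-core vesicle genes stood on the brain side. Of 14 measured, 9 were higher in brain, none in kidney and 5 within 2-fold, with a median log2 ratio of 3.005. Among the 5, Rab3a was read by a marked 430B probe set (4755.2 in brain and 612.5 in kidney). Its 430A probe set read 2671.3 and 53.9, at least 25.7-fold higher in brain. Dnajc5, also within 2-fold, had 1 probe set higher in brain and 4 within 2-fold. Ptprn2, a membrane protein of the granule, read 2611.8 in brain against 2.9 in kidney, a difference of at least 21.5-fold. Chgb, a granin of the vesicle core, read 2001.9 and 17.1, at least 19.2-fold higher. Vgf, a granin-like neuropeptide precursor, read 1901.4 and 3.4, at least 15.6-fold higher, and Scg3, which ties granins to the vesicle membrane, 1405.8 and 5.5, at least 13.5-fold higher. Chgb, Scg3, Chga, Scg2 and Ptprn thus shared low kidney signals, between 5.5 and 18.4, while Cadps2, which primes the vesicles for release, read 619.7 in brain and 584.3 in kidney and was within 2-fold. None of the calls of Ptprn2, Chgb, Vgf and Scg3 was lost under any setting tried.

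Receptors were called in both directions, in shares no higher than those of all genes. The shares were 11.1% against 12.9% in brain, and 7.41% against 18.7% in kidney. Of 27 receptors of the peptides made from the 10 precursors, 15 were under the floor in both tissues, 3 were higher in brain and 2 in kidney. In brain these were Adcyap1r1, which binds PACAP and, less tightly, VIP (1062.4 in brain and 28.1 in kidney), the somatostatin receptor Sstr4 (605.6 and 42.6) and the cholecystokinin receptor Cckbr (307 and 10.8). All 3 came within 2-fold when a gene's probe sets were averaged by their median, since their other probe sets read less. In kidney they were Cckar, the second cholecystokinin receptor, at 447.1 against 15.7 in brain (at least 2.40-fold), and Npy6r, a receptor of the neuropeptide Y family, at 326.7 against 34.7 (at least 11.4-fold). Npy6r has a second probe set under the floor in both tissues, and its call ended with the 430A floor used for 430B. The call of Cckar ended with the floor at the 75th percentile.

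The other 7 receptors above the floor in brain, kidney or both were not called. Only Tacr3 was above it in both tissues, so the ratios of the rest are lower bounds. Avpr2, the vasopressin receptor of the collecting duct, read 210.8 in kidney against 65.2 in brain, a difference of at least 1.13-fold. The somatostatin receptor Sstr2 read 207.9 in brain and 29.6 in kidney, at the 2-fold limit, and was called with quantile normalization. Sstr3 read 123.3 and 12. The kappa opioid receptor Oprk1 read 143.8 and 25.1, and the neurokinin receptor Tacr3 265.7 and 56.9, which became a brain call with signals as deposited. The neuropeptide Y receptors Npy4r (110.3 and 20) and Npy5r (105.3 and 7.9) lay at the floor of the brain array. The mu and delta opioid receptors, Oprm1 and Oprd1, were under the floor in both tissues (74.3 in brain and 5.3 in kidney, and 8.5 and 20.4).

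Peptidases that degrade peptides outside cells or in the cytosol were the reverse of the dense-core vesicle genes. Of 14 measured, 8 were higher in kidney, 1 in brain, 3 within 2-fold and 2 under the floor, with a median log2 ratio of -1.08. Enpep, which removes acidic residues from peptide ends, read 3848.5 in kidney against 66.2 in brain, a difference of at least 20.7-fold. Mme, or neprilysin, the enzyme that cuts enkephalins and substance P, read 1894.3 in kidney against 60.8 in brain, a difference of at least 10.2-fold, though its other probe set was under the floor. Dpp4, which trims neuropeptide Y among others, read 1134.4 in kidney against 24.5 in brain, a difference of at least 39.6-fold, and 3 of its 4 probe sets were called. Pgpep1, a pyroglutamyl peptidase that acts on thyrotropin-releasing hormone, read 691.2 in kidney and 435.7 in brain, 6.73-fold after centring but within 2-fold as deposited. The brain call was Ece2, an endothelin-converting enzyme (217 in brain against 12.6 in kidney, a difference of at least 2.09-fold). Its other probe set read 45.9 in brain and 125.8 in kidney, the other way and under the floor.

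**Figure D3:**
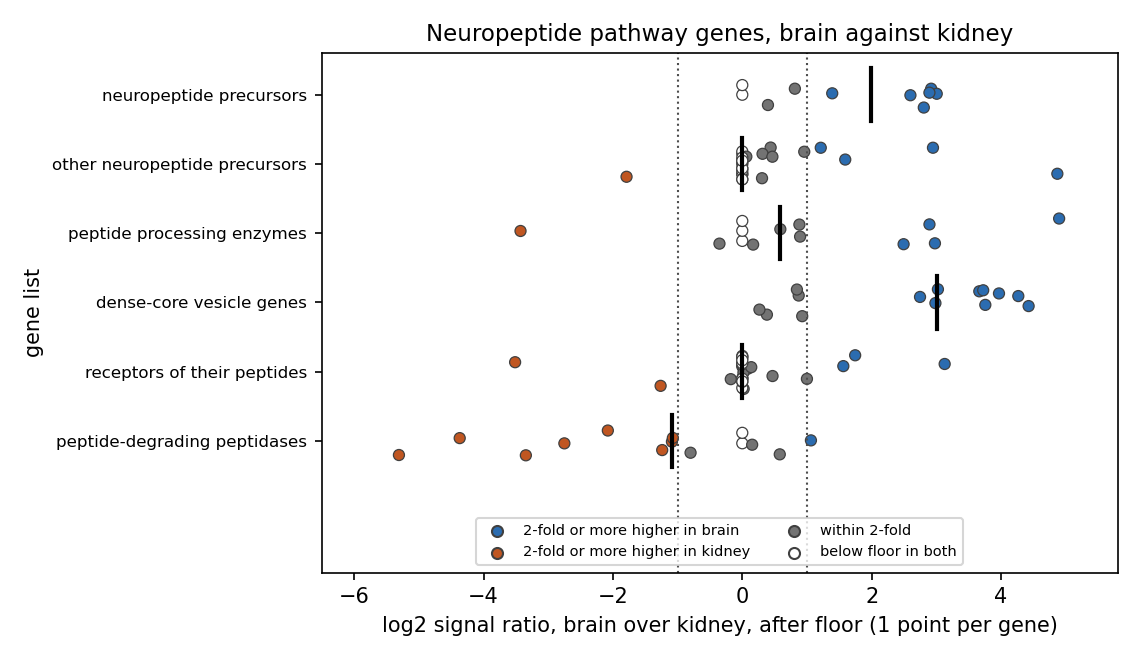
Log2 signal ratio of brain over kidney after centring and floor, 1 point per gene, for the 10 precursors and the 5 other lists of the peptide pathway; black bars are medians, colours give the call, dotted lines mark 2-fold and vertical scatter within a list has no meaning. Medians run from -1.08 for the peptidases to 3.005 for the dense-core vesicle genes, with 1.99 for the 10 precursors.

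Although the 10 precursors had no reverse probe set here, 17 genes of the related and marker lists had 19. Of these, 4 passed the floor of their array pair in brain, kidney or both; 2 of them were higher in brain and 0 in kidney, while among all 5652 reverse probe sets 6.17% were called higher in brain and 1.59% in kidney. The reverse probe set of Ghrh, the growth hormone-releasing hormone precursor, read 454.1 in brain and 147.8 in kidney, 3.07-fold higher, while a second reverse probe set of the gene read 31.4 and 29.4, under the floor. The first carries the mark _s_at, so its probes may be shared with other transcripts. The sense probe set of Ghrh was at percentile 12.4 of the brain array and 19.8 of the kidney array. The reverse probe set of Cpd, a carboxypeptidase of the trans-Golgi network, read 298.3 in brain and 135.7 in kidney, 2.20-fold higher. The sense probe set that stood for Cpd was within 2-fold, but its sense probe sets disagreed. Of them 1 was higher in brain, 2 in kidney, 3 within 2-fold and 1 under the floor, so no sense direction can be given. The reverse probe set of Scg3, whose sense signal was at percentile 97.3 in brain, read 5.8 in brain and 7.3 in kidney. That of Nefl, a neurofilament gene at sense percentile 99.3 in brain, read 86.8 in brain and 8 in kidney, under the floor. Reverse signals were compared as deposited, with no centring. With each pair centred on its median the call of Cpd ended (log2 0.61) and that of Ghrh did not (log2 1.09), and with quantile normalization both ended, as the shares over all reverse probe sets became 2.67% in brain and 3.4% in kidney. These genes were named after their values were seen, and the floors were 63.5 on U74A and 98.5 on U74B.

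The labels of both tissues matched their markers. All 8 neuron markers were higher in brain, led by Syt1 (8559.8 in brain and 27.4 in kidney) and Snap25 (4170 and 0.2), and 8 of 9 tubule and podocyte markers were higher in kidney, led by Fbp1 (8749.2 in kidney and 79.6 in brain) and Umod (7093.2 and 17). The remaining one, Nphs1, was under the floor in both. Peripheral nerve and Schwann cell genes, which could bring neuropeptide RNA into kidney, gave 1 brain call (Sox10, at 362.4 in brain and 43.9 in kidney, lost with the floor at the 75th percentile) and no kidney call among 6 measured. In kidney 2 of the 6 were above the floor, the myelin protein gene Pmp22 at 890.5 (468.9 in brain) and Dbh at 40.5, while Prph read 17.9 and Phox2a 44.1, both under it. Their summed signal, as deposited, was 1257.6 in brain and 1045.7 in kidney. Their part in the kidney values of Penk, Cck and Oxt was not tested.

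The calls of the 10 precursors were recomputed under 9 other settings of scaling, floor, probe set choice and threshold. Oxt, Sst, Npy and Tac1 were called higher in brain under all 9, and Cck under the 8 that could use its probe set. Their log2 ratios ranged from 1.65 to 3.07 for Oxt, from 1.71 to 5.84 for Sst, from 1.59 to 3.52 for Npy, from 1.30 to 5.83 for Tac1 and from 1.80 to 3.03 for Cck. Pdyn and Trh were called only with no floor, at log2 ratios of 5.21 and 1.45 on signals of 3.3 and 2.5 in kidney.

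**Figure D4:**
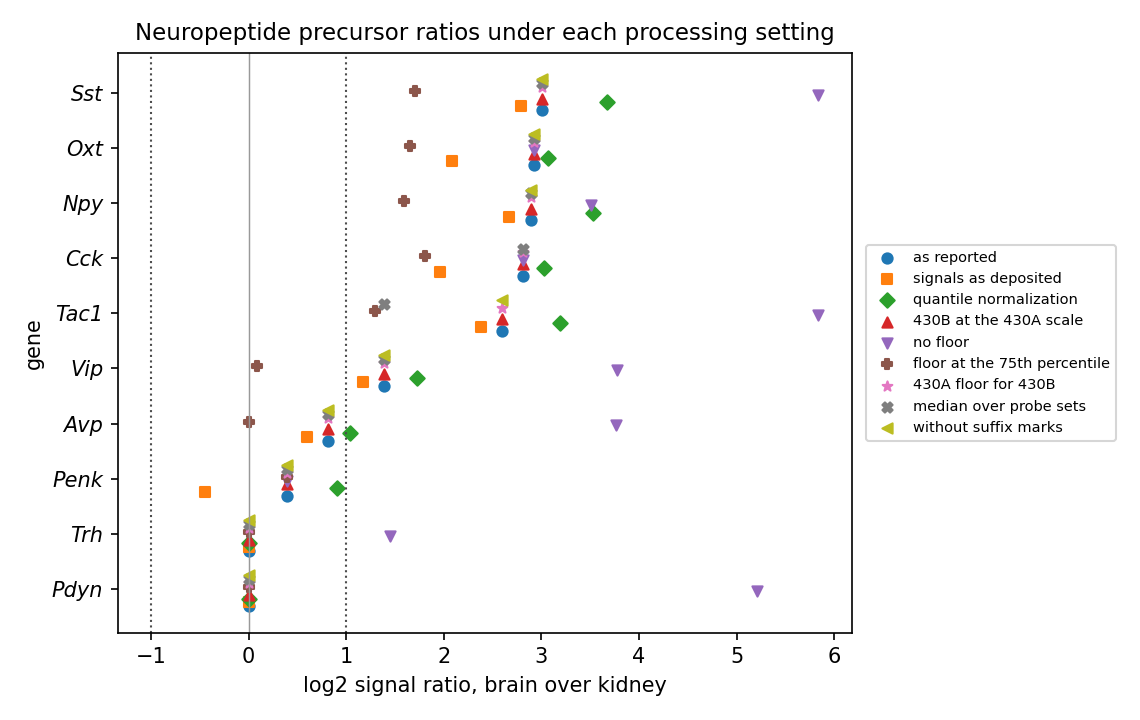
Log2 signal ratio of brain over kidney of the 10 precursors under the reported setting and each alternative of scaling, floor and probe set choice, with dotted lines at 2-fold. Sst, Oxt, Npy, Cck and Tac1 lie to the right of the 2-fold line under each of them, Vip does except with the floor at the 75th percentile, and Penk lies between -0.44 and 0.90.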

How the data were processed

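The series comprises 7 Affymetrix arrays of mouse brain or kidney RNA, 3 read for sense and 4 for reverse probe sets, each tissue and design once. Per the submitters' processing notes the deposited files hold linear MAS5 intensity values; the MAS5 version and scaling target are not given in the sources used here. On the U74 arrays the authors retained, per the labels, those listed as reverse in a mask from Affymetrix. Gene symbols come from the platform annotation in GEO, updated by gene identifier to RefSeq (GRCm38.p6); on 430A 20380 probe sets had 1 symbol, 691 several and 1555 none, on 430B 14661, 245 and 7605. The U74A array had 1552, 17 and 1042, and U74B 1763, 66 and 1212.

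Each sense brain array was paired, probe set by probe set, with the kidney array and shifted so that probe sets brighter than both arrays' medians had a median log2 ratio of 0, a shift of -0.84 for 430A and 2.08 for 430B. As floor served the higher median, 186.4 for 430A and 28.6 for 430B in kidney units. Where a gene had several probe sets, that of highest mean percentile stood for it. The 100 probe sets on both brain arrays were used from 430A. Reverse probe sets were compared as deposited, without a shift, and their floor was the 75th percentile, 63.5 on U74A and 98.5 on U74B.

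The members and lists were chosen with earlier results of these data known. Named were the 10 members, the 4 genes of each list with the largest ratio above the floor and every receptor above it; Cpe, Furin, Pcsk7, Cadps2, Ece2, Pnmt and the single marker values were added after their values were seen. On simulated pairs, 200 of 200 probe sets changed by 2 on the log2 scale were recovered on 430A (22626 probe sets) and on 430B (22511), with 0 and 1 unchanged ones called. The pairs were copies of the kidney array with added noise of SD 0.25. The changed probe sets were bright in kidney and changed past the 2-fold limit, so near full recovery was built in. Genes near the floor and the scaling between real tissues were not tested by it. Python 3.11.15, pandas 2.3.3 and numpy 2.4.6 were used.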

Additional observations from a re-analysis of the deposited data

How the results depend on the processing

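Over the 9 alternatives, the number of the 10 precursors higher in brain lay between 5 and 9 against 6 as reported, and 0 were higher in kidney under each. With no floor, 22 of the other precursors, 7 processing enzymes and 19 receptors were higher in brain, against 4, 4 and 3 as reported; these counts hold ratios between signals under the floor. With the floor at the 75th percentile, 2 other precursors were higher in brain, and 1 receptor and 4 peptidases in kidney (2 and 8 as reported). With the 430A floor used for 430B, 1 receptor was higher in brain and 1 in kidney, and with a gene's probe sets averaged by their median 0 receptors were higher in brain. With a 4-fold threshold, 2 other precursors and 1 receptor were higher in brain, and 1 receptor and 5 peptidases in kidney. Dense-core vesicle genes gave 9 to 12 brain calls throughout. The causes were not tested beyond what each setting does by construction. For single genes, 358 of 578 recomputed log2 ratios moved by less than the repeat SD of 0.25, 220 moved by more, and 0 called genes turned direction. Part of the 358 is built in. The 4-fold threshold changes no ratio, and settings for 430B alone cannot move a gene read on 430A. No paired analysis was possible because each group has 1 array and no test was run. No antisense setting could give a value for the 10 precursors, which have no reverse probe set here, and the setting without marked probe sets gave none for Cck. Signal over background limits Pdyn and Trh, for which only an upper bound can be given.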
